A study of Mus musculus and Homo sapiens with 28 samples.

Results

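The 12 libraries described here are the 6 Renca tumour libraries labelled WT VE822 and the 6 labelled SETD2 KD untreated, taken by sample label from 28 samples in the series, of which 24 are mouse libraries. Renca is a mouse renal carcinoma cell line. Its cells, suspended in diluted Matrigel, had been placed under the skin of the back, and treatment began once tumours could be felt. The WT VE822 group is labelled as wild type Renca cells, and its mice were gavaged with VE822 at 60 mg/kg for 5 days in a row each week. The SETD2 KD untreated group is labelled as Renca cells with a knockdown of SETD2 in mice left without drug. The level of Setd2, given below, went against both genotype labels. Both groups were bulk tumours of the same line, labelled as kidney tissue. The mouse strain and age, the knockdown construct, whether a cell line was 1 clone and whether each library was a separate animal are not stated in the sources used here. The p-values therefore measure only the spread between libraries, estimated over all 24 mouse libraries. The groups differ in genotype label and in drug at once, and the part of each in any difference cannot be told apart within these 12 libraries.

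SETD2 is the enzyme that trimethylates lysine 36 of histone H3 over transcribed gene bodies, and it is often lost in clear cell renal carcinoma. VE822 inhibits ATR, the kinase that senses stalled replication forks and signals through CHK1 to hold back cell cycle entry and mitosis. DNA that leaks into the cytosol is sensed by cGAS and STING, which switch on type I interferon, and interferon and chemokines can draw T cells into a tumour. The series sets SETD2 status and ATR inhibition side by side on these responses.

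All values are regularised log2 values (rlog), so a difference of 1 is a change of 2-fold on that scale. Differences are given by label, as WT VE822 minus SETD2 KD untreated, with the standard error (SE) and the Benjamini-Hochberg adjusted p of limma over 15916 genes. "Higher" and "lower" refer to libraries labelled WT VE822, and a gene is called at an adjusted p under 0.05. Where 3 levels are given for a group, they are the lowest, the median and the highest of its 6 libraries.

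Setd2, the targeted gene, went against the genotype labels. Its level was 9.97, 9.83, 9.58, 10.23, 10.28 and 10.28 in WT VE822 replicates 1 to 6 and 10.80, 10.88, 10.70, 10.86, 10.85 and 10.77 in SETD2 KD untreated replicates 1 to 6. Every library labelled WT lay below every library labelled SETD2 KD. The difference in Setd2 was -0.78 ± 0.10 (SE, limma adjusted p = 3.05e-06). An exact two-sided permutation test of Setd2 over the 12 libraries gave p = 0.00216, the smallest that 6 against 6 libraries can give. In the other groups Setd2 read 10.74, 10.79 and 10.91 (WT untreated, lowest, median and highest of 7) and 9.42, 9.75 and 9.96 (SETD2 KD VE822, of 5), so the low libraries carry the VE822 label under both genotypes. Setd2 lies on chromosome 9 (GRCm38, 110532597 to 110618633, plus strand), and every direction below is stated by label for this reason.

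The libraries had a median rlog of 9.13 to 9.21 and 12906 to 13381 genes above 5 over the 24 mouse libraries. The SD of the gene-wise difference between a pair of libraries was 0.29 to 0.446 within WT VE822 and 0.146 to 0.242 within SETD2 KD untreated, so the libraries labelled WT VE822 were the more unlike each other and none was a copy. WT VE822 replicates 1, 2 and 4 were high in skeletal muscle transcripts, with a mean over 13 muscle genes of 8.96, 6.69 and 7.28 against 4.61 to 4.74 in the other 3 and 4.33 to 5.24 in SETD2 KD untreated. Results that touch host tissue are therefore also given without these 3 libraries. Renal epithelial genes marked all 12 libraries (Krt8 at 14.63 or more and Krt18 at 13.41 or more). Markers of mature nephron segments were low or absent: 12 of 17 were below the minimum level tested, among them Umod, Slc22a6 and Calb1, listed at 0 throughout.

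Many genes differed, and most changes of at least 2-fold were upward. Of 15916 genes tested, 4988 (31.3%) were called, 2475 higher (15.6%) and 2513 lower (15.8%), with a median difference over all genes of 0.01. After each library's values had been centred chromosome by chromosome on the median (below, "chromosome medians removed"), 29.7% were called, 3015 higher (18.9%) and 1706 lower (10.7%). With quantile normalisation 2095 were higher and 2981 lower, so the balance of directions depends on the scaling. At least 2-fold changes were 310 (1.95%), of which 273 were higher and 37 lower. The 6 libraries of each group did not overlap in 2348 of the called genes (14.8% of those tested). Without the 3 libraries high in muscle transcripts, 3364 genes were called (21.1%), 1578 higher (9.91%) and 1786 lower (11.2%), and 3027 of the 4988 calls were shared. Genes called higher had a lower level (median rlog 7.16 against 9.16 for all tested), and genes called lower a higher one (10.24) and a longer gene span (median 28.2 kb against 19 kb).

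**Figure D1:**
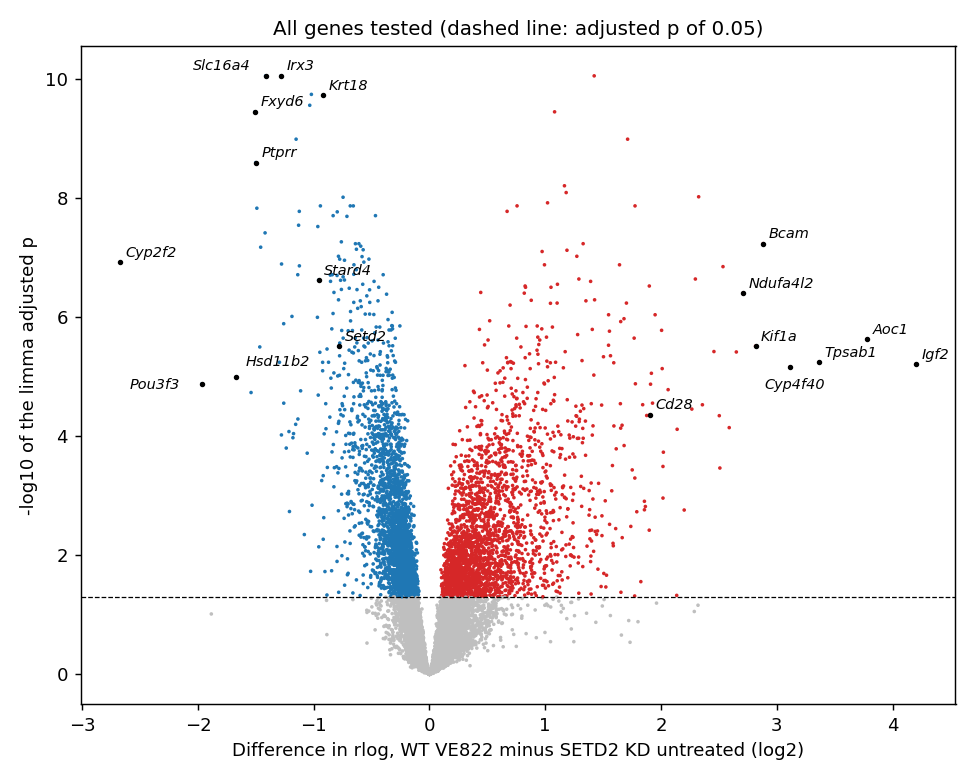
Each point is 1 of 15916 genes, with the difference in rlog (WT VE822 minus SETD2 KD untreated, log2) on the x axis and the -log10 of the limma adjusted p on the y axis; red points are called higher, blue points called lower and grey points not called. Changes of 1 or more are mostly to the right (273 higher, 37 lower), while Slc16a4, Irx3 and Krt18, among the smallest p-values, lie to the left.

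The strongest rise was in Igf2, the imprinted insulin-like growth factor 2 that drives fetal growth. Igf2 (ENSMUSG00000048583, chromosome 7, 142650766 to 142666816, minus strand) read 9.10, 10.55 and 11.13 in WT VE822 and 5.83, 5.98 and 6.63 in SETD2 KD untreated. The groups were more than 2 log2 units apart, and the difference in Igf2 was 4.20 ± 0.55 (limma adjusted p = 6.21e-06). The Igf2 locus has an antisense transcript, and the libraries' strandedness is not stated, so reads of the pair cannot be told apart. Aoc1, the diamine oxidase that breaks down histamine and putrescine, read 7.76, 8.89 and 9.78 against 4.93, 5.06 and 5.12. The difference in Aoc1 was 3.78 ± 0.46 (limma adjusted p = 2.32e-06), again with no overlap. Tpsab1, a mast cell tryptase, read 7.90, 8.26 and 8.99 against 4.84, 4.88 and 5.30, a difference of 3.37 ± 0.44 (limma adjusted p = 5.72e-06). Cyp4f40, a cytochrome P450 of the fatty acid hydroxylase family, was 3.11 ± 0.41 higher, from a median of 6.42 to 9.52. Bcam, a laminin receptor of epithelia and red cells, was 2.88 ± 0.27 higher (10.48, 10.77 and 11.17 against 7.37, 7.95 and 8.26, limma adjusted p = 5.82e-08).

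Other genes among the 12 largest rises came from varied programmes. Kif1a, a kinesin of axonal transport, was 2.82 higher, and Ndufa4l2, a mitochondrial protein induced under hypoxia, 2.71 higher. Ptgds, a prostaglandin D synthase, was 2.51 higher, Tceal7 2.59 and the calcium-binding phosphatase Ppef1 2.50. Myom2, a protein of the muscle M-band, was 2.65 higher with groups apart (7.56, 7.87 and 8.39 against 5.09, 5.25 and 5.69). Myom2 kept a difference of 2.65 without the libraries high in muscle transcripts (limma adjusted p = 0.000298), and its libraries ranged far less than those of the muscle genes described further on. All 12 genes were chosen among called genes without overlap of the groups, and they kept their call in each of 21 alternative analyses.

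The largest falls took in drug and steroid metabolism and nephron regulators. Cyp2f2, a P450 known from airway club cells, read 5.82, 6.21 and 7.13 in WT VE822 and 8.49, 8.89 and 9.67 in SETD2 KD untreated, a difference of -2.67 ± 0.26 (limma adjusted p = 1.19e-07). Pou3f3, a POU factor of the developing loop of Henle and distal tubule, read 7.01, 7.16 and 7.96 against 9.10, 9.21 and 9.45, a difference of -1.97 ± 0.28 (limma adjusted p = 1.33e-05). Hsd11b2, which inactivates glucocorticoid in the distal nephron, differed by -1.67 ± 0.23 (5.24, 5.44 and 6.0 against 6.77, 7.24 and 7.5). These 3 genes and the falls that follow were chosen among called genes without overlap of the groups. Chrdl2, a secreted BMP antagonist, differed by -1.54, the sodium pump regulator Fxyd6 by -1.51, the MAP kinase phosphatase Ptprr by -1.50 and the Rab27 effector Exph5 by -1.49. Ces2g, a carboxylesterase, differed by -1.46, the solute carriers Slc35f3 and Slc16a4 by -1.42 each, and the P450 Cyp2j6 by -1.30.

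The smallest p-values among genes with an established symbol belonged to tight falls. Irx3, an Iroquois homeobox factor that patterns the nephron, read 7.89, 8.19 and 8.39 against 9.26, 9.5 and 9.56, a difference of -1.28 ± 0.08 (limma adjusted p = 8.84e-11). Slc16a4, of the monocarboxylate transporter family, read 5.52, 5.80 and 5.92 against 7.10, 7.19 and 7.27 (limma adjusted p = 8.84e-11). Ipmk, an inositol polyphosphate kinase, read 12.38, 12.52 and 12.62 against 13.44, 13.46 and 13.75, a difference of -1.02 ± 0.06 (limma adjusted p = 1.81e-10). In Irx3, Slc16a4 and Ipmk the range within each group was narrower than the gap between the groups. They were chosen for their small p, so a narrow range comes with the choice.

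**Figure D2:**
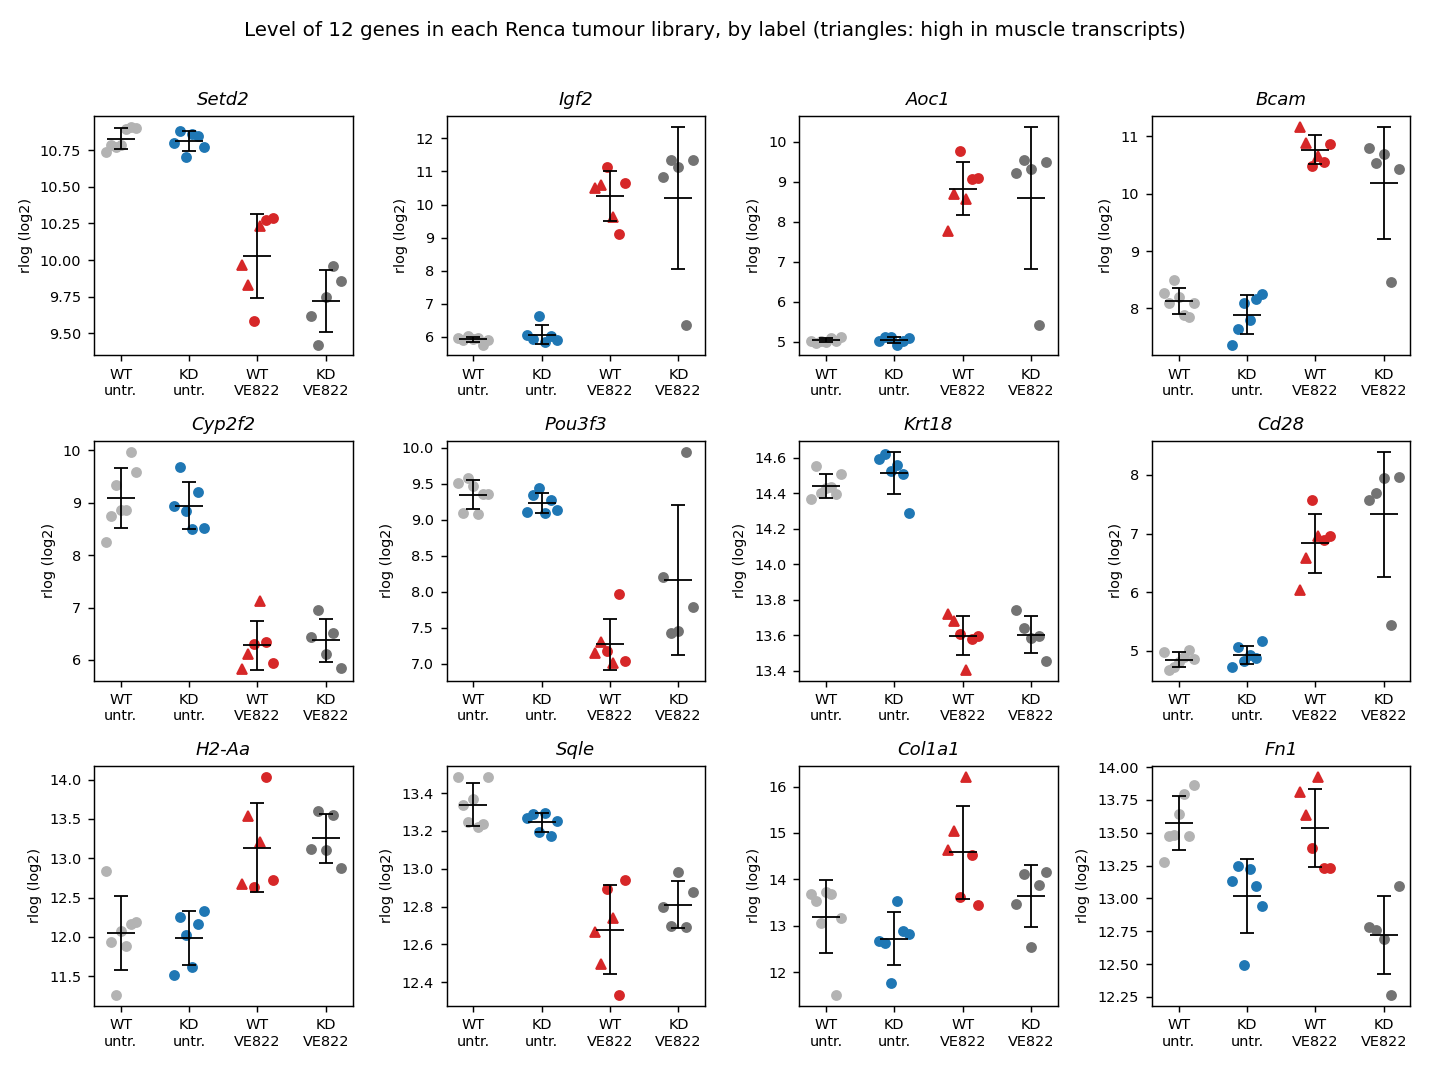
Each panel shows the rlog (log2) of 1 gene in each of the 24 mouse libraries by label, with a black bar for the group mean and whiskers for the SD; triangles are WT VE822 replicates 1, 2 and 4, high in muscle transcripts. Setd2 is at 10.70 or more in every SETD2 KD untreated library and at 10.28 or less in every WT VE822 library, and Igf2 is at 9.10 or more in WT VE822 and 6.63 or less in SETD2 KD untreated.

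Renal epithelial identity genes were split, with 8 of 14 tested members lower and 4 higher, against 15.8% and 15.6% of all genes. The list median was -0.42 (all genes 0.01). The keratins of simple epithelia fell: Krt18 read 13.41, 13.60 and 13.72 against 14.29, 14.54 and 14.62 (difference -0.92 ± 0.06, limma adjusted p = 1.87e-10), and its partner Krt8 differed by -0.63 ± 0.06. The nephron regulators Emx2 (-0.58), Pax2 (-0.43) and Pax8 (-0.42), the adhesion protein Cdh1 (-0.54) and the kidney cadherin Cdh16 (-0.42) were lower as well. The opposite direction was seen in Wt1, a regulator of podocytes and nephron progenitors (1.43), Epcam, an epithelial adhesion molecule (1.06), the ductal keratin Krt7 (0.87) and Hnf4a, a proximal tubule factor (0.55). Without the 3 libraries high in muscle transcripts the counts were again 8 lower and 4 higher. Among 5 tested genes of mature nephron segments, the proximal tubule endocytic receptors Lrp2 (0.49) and Cubn (0.27) were higher and Hsd11b2 lower. The call of Cubn was lost in 14 of the 21 alternatives, and that of Lrp2 in 1, quantile normalisation (0.29, adjusted p = 0.115).

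Enzymes that handle foreign compounds changed in both directions, 6 of 20 tested higher and 9 lower (median -0.12), against 15.6% and 15.8% of all genes. Besides Cyp2f2 and Ces2g, the glutathione transferases Gsta4 (-1.08), Gsta1 (-0.71), Gstt1 (-0.67) and Gsta3 (-0.44), the methyltransferase Inmt (-1.01), the quinone reductase Nqo1 (-0.92) and the aldehyde dehydrogenase Aldh3a1 (-0.31) were lower. Besides Aoc1 and Cyp4f40, the P450 genes Cyp2s1 (1.32), Cyp1b1 (1.19) and Cyp4b1 (0.59) and the retinal dehydrogenase Aldh1a1 (0.69) were higher. The groups did not overlap in 11 of the 20 (15.3% of all genes). The list was chosen with earlier results of these data known and holds Aoc1, Cyp4f40, Cyp2f2 and Ces2g from the largest differences. A share above that of all genes therefore says little about such enzymes.

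Cholesterol synthesis, the pathway from acetyl-CoA units through mevalonate and squalene to cholesterol under control of SREBP2, was lower in most of its members. Of 24 members tested, 17 were lower and none higher, against 15.8% and 15.6% of all genes. The median difference was -0.34, and 23 of 24 had a negative difference. The list mean lay between 10.05 and 10.57 in WT VE822 and between 10.57 and 10.80 in SETD2 KD untreated. The upstream 250 bases of 4 of its genes are shown because this set moved together and shares a short promoter motif. They are from RefSeq, build GRCm38.p6, all on the plus strand, and end at the base before the annotated start. Capitals mark CCAAT or, on the other strand, ATTGG. They belong to Lss (chr10:76531355-76531604), Nsdhl (chrX:72918271-72918520), Mvk (chr5:114444019-114444268) and Hmgcs1 (chr13:119690101-119690350).
Lss: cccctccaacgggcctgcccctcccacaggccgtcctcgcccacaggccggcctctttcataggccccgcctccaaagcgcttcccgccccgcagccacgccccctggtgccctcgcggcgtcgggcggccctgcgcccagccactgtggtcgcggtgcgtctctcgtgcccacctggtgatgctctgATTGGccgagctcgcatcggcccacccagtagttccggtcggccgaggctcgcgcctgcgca
Nsdhl: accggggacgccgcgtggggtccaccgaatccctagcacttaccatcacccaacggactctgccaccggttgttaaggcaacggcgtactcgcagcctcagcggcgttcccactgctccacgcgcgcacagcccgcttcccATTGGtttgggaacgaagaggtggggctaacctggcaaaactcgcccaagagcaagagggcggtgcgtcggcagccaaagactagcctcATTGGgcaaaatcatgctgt
Mvk: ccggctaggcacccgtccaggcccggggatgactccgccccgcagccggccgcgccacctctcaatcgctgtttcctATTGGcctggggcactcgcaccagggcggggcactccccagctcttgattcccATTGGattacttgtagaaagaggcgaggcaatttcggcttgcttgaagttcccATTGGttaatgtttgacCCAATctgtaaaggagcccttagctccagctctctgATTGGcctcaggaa
Hmgcs1: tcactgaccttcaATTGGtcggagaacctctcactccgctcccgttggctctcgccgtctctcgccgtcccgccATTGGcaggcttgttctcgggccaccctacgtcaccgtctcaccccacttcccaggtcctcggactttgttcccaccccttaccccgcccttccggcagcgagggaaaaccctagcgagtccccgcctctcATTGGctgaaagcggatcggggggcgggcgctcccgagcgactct

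Promoters were found for 16 of the 24 members (19 promoters, as some genes have several). For 11 of the 19 the bases after the start were found in an annotated transcript of the gene. Some of the 250-base windows overlap annotated exons, by up to 232 bases in Dhcr7, though those shown above do not. CCAAT, searched on both strands, was present in 16 of the 19 (84.2%), against 33.8% of 32851 promoters in the table and 34.8% of those of tested genes. GGGCGG, on either strand, was in 16 of 19 (84.2%), against 54.7% of promoters of tested genes. TCACCCCAC, on either strand, was in 1 of 19, that of Hmgcs1, against 0.57%. A match is a description of these letters and not of a bound factor.

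Along the pathway, Hmgcs1, which makes HMG-CoA, differed by -0.32, and Mvk, the mevalonate kinase, by -0.33. Idi1, which isomerises isopentenyl diphosphate, differed by -0.59 and Fdps, which builds farnesyl diphosphate, by -0.53. Sqle, the epoxidase of squalene, read 12.33, 12.70 and 12.94 against 13.18, 13.26 and 13.30, a difference of -0.57 ± 0.08 (limma adjusted p = 1.52e-05). Lss, the cyclase that forms lanosterol, read 10.00, 10.26 and 10.48 against 10.65, 10.78 and 11.05 (-0.54 ± 0.09). Lss lies on chromosome 10, and its difference was -0.28 (limma adjusted p = 0.027) with chromosome medians removed. Neither Sqle nor Lss overlapped between the groups. The later enzymes Nsdhl (-0.51) and Dhcr7 (-0.56) were lower too. Srebf2, which encodes SREBP2, read 13.33, 13.50 and 13.71 against 13.79, 13.95 and 14.04 (-0.46 ± 0.06, limma adjusted p = 6.8e-06). Stard4, a carrier of cholesterol between membranes, had the largest difference of the list, -0.96 ± 0.10 (10.62, 10.83 and 11.05 against 11.62, 11.80 and 11.92, limma adjusted p = 2.39e-07). Insig1, which holds SREBP2 in the endoplasmic reticulum, was not called (-0.26), nor were Tm7sf2 (-0.22), Pmvk (-0.12) and Hsd17b7 (-0.06). Without the libraries high in muscle transcripts, 9 of 24 remained called lower, against 11.2% of all genes, with a median of -0.26.

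T cell genes were higher across nearly the whole list. Of 19 members tested, 17 were higher and none lower, against 15.6% and 15.8% of all genes, with a median of 0.78. Cd28, the costimulatory receptor of T cells, had the largest difference, 1.90 ± 0.29 (6.03, 6.93 and 7.57 against 4.73, 4.90 and 5.16, limma adjusted p = 4.35e-05). Cd2, an adhesion receptor of T and NK cells, read 5.85, 6.38 and 6.62 against 5.20, 5.26 and 5.41, a difference of 1.04 ± 0.12 (limma adjusted p = 5.85e-07). The groups did not overlap for Cd28 or Cd2, but they did for 13 of the 19. Over all genes the groups did not overlap in 15.3%. The receptor genes Cd3g (1.05), Cd3e (0.97) and Trac (0.81) and the coreceptors Cd8a (1.05) and Cd8b1 (0.89) were higher, whereas the coreceptor Cd4 was not called (0.08). The mean over the list ran from 5.06 to 6.21 in WT VE822 and from 4.71 to 4.97 in SETD2 KD untreated. WT VE822 replicate 3 had the lowest list mean of its group (5.06) but the highest Cd28 (7.57) and Cd2 (6.62). Cd28 and Cd2 thus did not follow the list as a whole in that library. In bulk tumours, more cells of a type and more RNA per cell cannot be told apart. Without the libraries high in muscle transcripts, 14 of 19 were higher, against 9.91% of all genes, with a median of 0.75. With the list means of muscle, fibroblast and adipocyte genes as covariates (the tissue covariates), 7 of 19 were higher, and 1382 of all 15916 genes.

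Cytotoxic and NK cell genes were higher in 7 of 9 tested (median 0.48), against 15.6% of all genes. Among the 7 were the granule protein Nkg7 (0.80), Gzmb (0.70), the activating receptor Klrk1 (0.66) and perforin, Prf1 (0.49). The groups overlapped in all 9. Without the libraries high in muscle transcripts 1 of the 9 was called higher, near the 9.91% of all genes. Gzmk, Eomes, Ifng and Fasl lay below the level tested, with Ifng at 2.03 to 2.69. Among checkpoint genes, 7 of 13 were higher (median 0.43), against 15.6% of all genes. They were Pdcd1, encoding PD-1 (1.08), Ctla4 (0.96), Lag3 (0.72), Tnfrsf18 (0.70), Tigit (0.65), Tnfrsf4 (0.63) and Btla (0.43). Ctla4 read 3.98, 4.78 and 5.59 against 3.64, 3.81 and 4.0, with its groups just overlapping. Cd274, encoding PD-L1, differed by 0.03 and was not called. Without the libraries high in muscle transcripts 4 of the 13 were called higher, against 9.91% of all genes.

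MHC class II genes, which present antigen to CD4+ T cells, were higher in 9 of 10 (median 0.92), with and without the libraries high in muscle transcripts, and in 4 of 10 with the tissue covariates. Over all genes 15.6% were higher and 15.8% lower, and 9.91% and 11.2% without those libraries. H2-Aa read 12.64, 12.97 and 14.03 against 11.51, 12.10 and 12.33, a difference of 1.15 ± 0.23 (limma adjusted p = 0.000708). The invariant chain Cd74 differed by 0.92 ± 0.19, and H2-Eb1 by 1.17, H2-Ab1 by 1.05 and Ciita, the class II transactivator, by 0.92. MHC class I genes moved less, 5 of 18 higher (H2-M3 0.35, H2-Q6 0.54, H2-Q7 0.29, H2-Q4 0.26 and B2m 0.23) with a median of 0.19. Without the libraries high in muscle transcripts 2 of 18 were higher, near the 9.91% of all genes. MHC genes are near copies of one another, so their separate values are uncertain. Dendritic cell genes were higher in 7 of 12 (median 0.40), against 15.6% of all genes. They were led by the migration receptor Ccr7 (0.74) and the integrin Itgax (0.68). Without the 3 libraries 3 of 12 were higher, against 9.91% of all genes. Siglech, 1 of the 7, read 2.868 to 3.115 in SETD2 KD untreated and up to 4.715 in WT VE822. As the minimum mean for testing was 3, its high libraries helped Siglech to be tested, which favours a call upward. Macrophage genes went the other way where they were called: the haemoglobin scavenger receptor Cd163 (-0.63), the endotoxin coreceptor Cd14 (-0.46), the mannose receptor Mrc1 (-0.44) and the lysosomal protein Cd68 (-0.43) were lower, none of 15 was higher, and the list median was 0.08. The call of Cd163 was lost when SETD2 KD untreated replicate 1 or 3 or WT VE822 replicate 3 or 6 was left out. The pan-macrophage genes Adgre1 (-0.16), Csf1r (0.15) and C1qa (0.17) were not called.

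Interferon-gamma and chemokine genes were higher in 6 of 20 and lower in none (median 0.52), against 15.6% and 15.8% of all genes. Cxcl9, a chemokine that attracts T cells, read 7.75, 9.41 and 10.88 against 6.54, 7.42 and 7.79, a difference of 2.20 ± 0.50 (limma adjusted p = 0.00174). Gbp4, an interferon-inducible GTPase, was higher by 1.77 ± 0.35 (7.45, 8.84 and 9.92 against 6.97, 7.10 and 7.36). The lowest WT VE822 library of Cxcl9, replicate 3, lay inside the SETD2 KD untreated range, while Gbp4 did not overlap. Cxcl10 (0.84), Gbp6 (0.84), the feedback inhibitor Socs1 (0.67) and Gbp3 (0.65) were also higher, and Irf1 (0.25) was not called. Without the libraries high in muscle transcripts 3 of 20 were higher and 1 lower, not far from the 9.91% and 11.2% of all genes.

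Type I interferon targets showed no common direction, 3 of 30 higher and 6 lower (median -0.02). Of all genes, 15.6% were higher and 15.8% lower. Bst2, which tethers budding virus (0.41), Oas2 (0.41) and the deubiquitinase Usp18 (0.35) were higher. The RNA sensor Ifih1 (-0.36), Mx2 (-0.32), Stat2 (-0.28), Ifit2 (-0.22), Eif2ak2 (-0.20) and Ifi35 (-0.19) were lower. With chromosome medians removed the counts were 5 higher and 2 lower and the median 0.02. Isg15 (0.12), Rsad2 (0.03), Irf7 (0.01) and Mx1 (-0.01) were not called.

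Cytosolic DNA sensing genes were called in a share near that of all genes. Cgas, the sensor, read 5.99, 6.19 and 6.25 against 5.45, 5.87 and 6.10, a difference of 0.35 ± 0.12 (limma adjusted p = 0.033). Its groups overlapped and the call was lost in 10 of 21 alternatives, including without the libraries high in muscle transcripts (0.28, adjusted p = 0.223) and with quantile normalisation (0.15, adjusted p = 0.342). Tmem173, encoding STING, read 11.38, 11.52 and 11.58 against 11.46, 11.62 and 11.92 and was not called (-0.16 ± 0.08, adjusted p = 0.111). Of 15 members tested, 3 were higher and 2 lower (median -0.03), against 15.6% and 15.8% of all genes. Rnaseh2c, a subunit of the RNase that removes ribonucleotides from DNA, was higher (0.32), as was the chromatin barrier protein Banf1 (0.20). The kinase Tbk1 (-0.19) and the cyclic dinucleotide importer Slc19a1 (-0.44), both on chromosome 10, were lower. With chromosome medians removed the list had 4 higher and none lower (median 0.02), and Tbk1 then differed by 0.07 and Slc19a1 by -0.17, neither called. Ifnb1 lay at 0.60 to 0.76, below the level tested.

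Atr, the target of VE822, read 8.78, 9.09 and 9.32 against 8.86, 9.03 and 9.35 and was not called (-0.02 ± 0.09, adjusted p = 0.891). Chek1, its effector kinase, was lower by label (-0.23 ± 0.09, limma adjusted p = 0.0466), with overlapping groups (8.2, 8.56 and 8.74 against 8.62, 8.78 and 8.85). The call of Chek1 was lost in 11 of 21 alternatives, and without the libraries high in muscle transcripts the difference was -0.09 (adjusted p = 0.538). Among 17 genes of the ATR-CHK1 pathway, the phosphatase Cdc25a was higher (0.30 ± 0.06, 9.13, 9.18 and 9.31 against 8.73, 8.91 and 9.02) and the fork protection proteins Timeless (-0.29) and Tipin (-0.17) lower. Timeless is on chromosome 10 and was at -0.03, not called, with chromosome medians removed. The 13 other members were not called, so the share called was below the 31.3% of all genes.

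Replication genes were lower in 7 of 24 and higher in 1 (median -0.09), against 15.8% and 15.6% of all genes. Without the libraries high in muscle transcripts 5 of 24 were lower, against 11.2% of all genes. With the tissue covariates 2 of 24 were lower, against 1462 of all 15916 genes. Mcm4, a subunit of the replicative helicase, read 12.66, 12.72 and 12.82 against 13.07, 13.20 and 13.26, a difference of -0.47 ± 0.04 (limma adjusted p = 1.97e-08). Cdc45, which activates the same helicase, moved the other way, reading 10.91, 11.01 and 11.22 against 10.61, 10.67 and 10.75 (0.35 ± 0.05, limma adjusted p = 2.64e-05). Both genes had groups apart. Mcm5 (-0.26), Gins3 (-0.22), Mcm6 (-0.21), Mcm3 (-0.14) and Pcna (-0.12) were lower. Homologous recombination genes were lower in 8 of 18 (15.8% of all genes) and higher in none (median -0.12), among them Brca2 (-0.30), Nbn (-0.26), Fanci (-0.25), Xrcc3 (-0.24), Mre11a (-0.23) and Brca1 (-0.23), but in 2 of 18 without the libraries high in muscle transcripts, near the 11.2% of all genes. With chromosome medians removed 4 were lower and 1 higher. Mitosis genes were higher in 5 of 22, not far from the 15.6% of all genes, and lower in 1 (median 0.07): the checkpoint protein Mad2l1 (0.32), the survivin gene Birc5 (0.30), Cdca8 (0.23), Ccnb2 (0.21) and Ccnb1 (0.19) were higher and Cdk1 (-0.16) lower.

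Targets of p53 were lower in 6 of 19 and higher in 2 (median -0.08), against 15.8% and 15.6% of all genes. With chromosome medians removed 3 were higher and 4 lower (median 0.06), against 18.9% and 10.7% of all genes. Sesn1 (-0.46), Trp53inp1 (-0.30), Ccng1 (-0.27), Zmat3 (-0.25), Phlda3 (-0.24) and Mdm2 (-0.20) were lower, Eda2r (0.82) and the death receptor Fas (0.37) higher, and Cdkn1a, encoding p21, was not called (0.20). Writers, erasers and readers of histone H3 lysine 36 methylation were flat apart from Setd2: it was the single call among 23, and the other 22 lay between -0.21 (Ash1l) and 0.15 (Dnmt3a). Hypoxia targets had 2 of 15 lower, Adm (-0.78) and Ndrg1 (-0.55), and 1 higher, the prolyl hydroxylase Egln3 (0.69), while Vegfa (-0.12) and Car9 (0.08) were not called. In the unfolded protein and stress list 2 of 17 were higher (Pdia4 0.28 and Xbp1 0.19) and 2 lower (Ddit3 -0.34 and Trib3 -0.33). No share in the hypoxia and stress lists exceeded that of all genes (15.6% higher and 15.8% lower). Among 15 NF-kB targets the adhesion receptors Vcam1 (0.63) and Icam1 (0.55) were higher and none was lower, a share near the 15.6% of all genes. Both calls were lost without the libraries high in muscle transcripts and with the tissue covariates. Ribosomal protein genes were called in 3 of 20, oxidative phosphorylation genes in 3 of 18, histone genes in 1 of 11 and mitochondrial transcripts in none of 10. Each of these shares was below the 31.3% of all genes called.

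**Figure D3:**
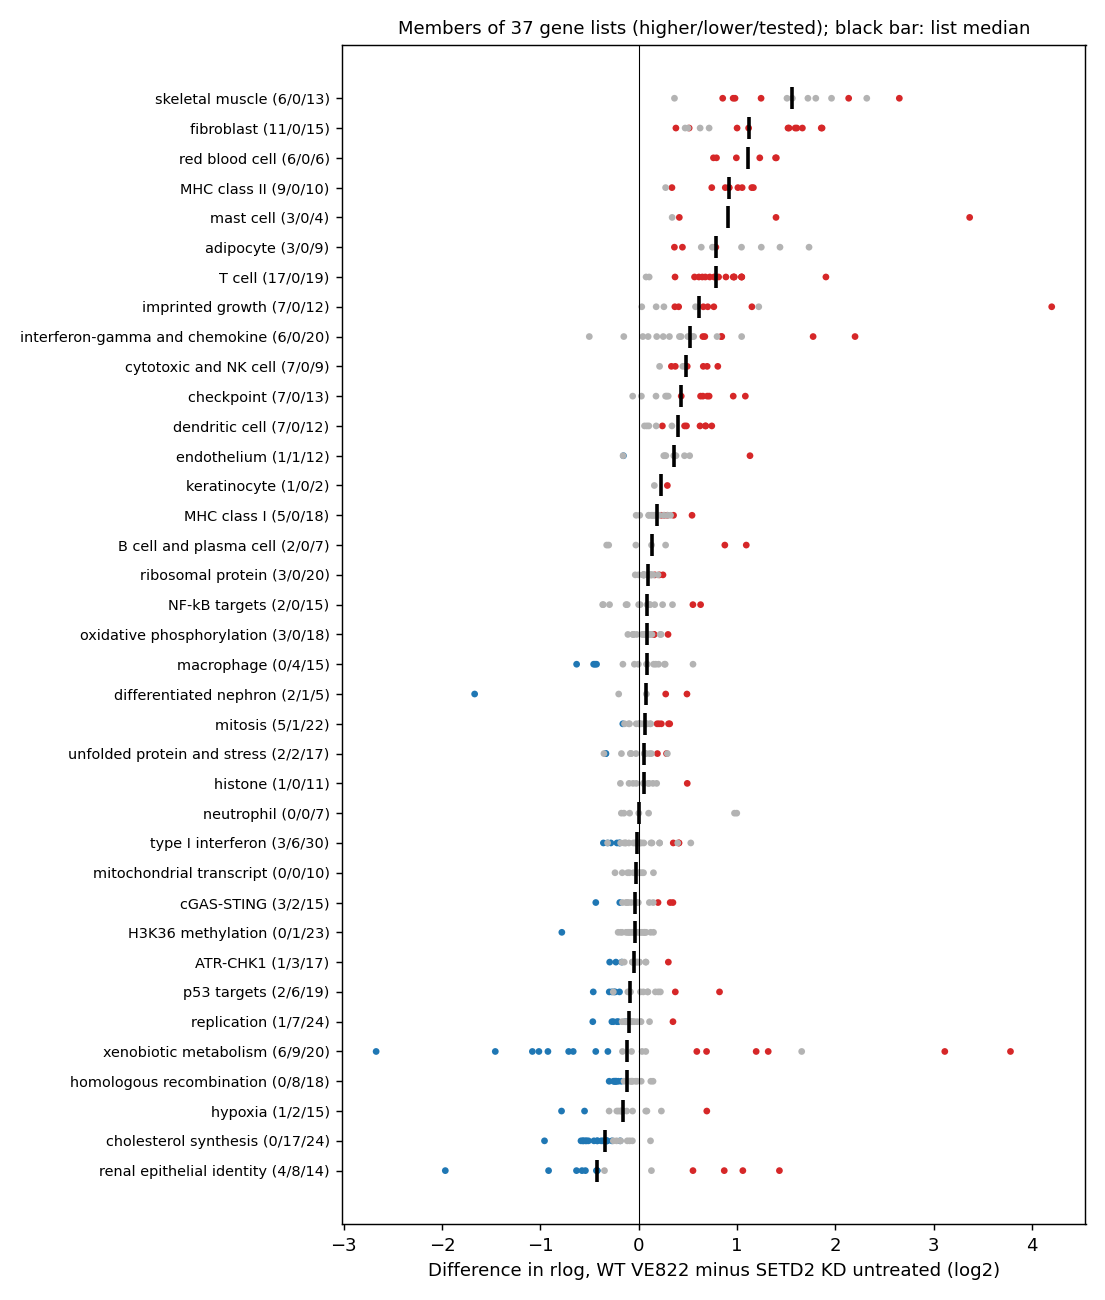
Each row is 1 of 37 gene lists with its counts of higher, lower and tested members, each point is a member's difference in rlog (log2), red for higher, blue for lower and grey for not called, and the black bar is the list median. T cell (17 of 19 higher) and MHC class II (9 of 10 higher) lie to the right of 0, and cholesterol synthesis (17 of 24 lower) and most renal epithelial genes (8 of 14 lower) to the left.

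Host and stromal lists differed in how many members were higher, from all of the red blood cell genes to none of the neutrophil genes. Fibroblast genes were higher in 11 of 15 and lower in none (median 1.12), against 15.6% and 15.8% of all genes. Col1a1, the main chain of type I collagen, read 14.64, 15.05, 13.62, 16.21, 14.54 and 13.46 in WT VE822 replicates 1 to 6 and 11.76, 12.75 and 13.54 in SETD2 KD untreated (1.87 ± 0.41, limma adjusted p = 0.00151). The highest Col1a1 value was in replicate 4, one of the libraries high in muscle transcripts, and replicate 6 lay inside the SETD2 KD untreated range. Without those 3 libraries the difference in Col1a1 was 1.15 (adjusted p = 0.0647), and 1 of the 15 genes, Fmod, stayed called (1.76, adjusted p = 7.78e-05). Fmod, encoding fibromodulin, a collagen-binding proteoglycan, read 8.40, 9.12 and 9.73 against 6.82, 7.57 and 7.97 (1.59 ± 0.21, limma adjusted p = 5.84e-06).

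Skeletal muscle genes were higher in 6 of 13 (median 1.56), and without the 3 libraries that define the muscle-high set in 1 of 13, Myom2, with a median of -0.10. Mylpf, a fast muscle light chain, differed by 0.85 in all libraries and by -0.10 without those 3. Adipocyte genes were higher in 3 of 9 (Lpl 0.78, Lep 0.44 and Pnpla2 0.36), Lpl losing its call without SETD2 KD untreated replicate 1 or WT VE822 replicate 4. The adipocyte list mean was 1.77 to 2.13 above the SETD2 KD untreated mean in WT VE822 replicates 3, 4 and 5, and between -0.12 and -0.05 in replicates 1, 2 and 6. Red blood cell genes were higher in all 6 tested (median 1.11), also without the 3 libraries, against 15.6% and 9.91% of all genes. With quantile normalisation 4 were higher, and with the tissue covariates 1. Their list mean was 7.41 in WT VE822 and 6.32 in SETD2 KD untreated. It was 7.14 in both WT untreated and SETD2 KD VE822, so SETD2 KD untreated was the group apart. Hba-a1 read 7.08, 8.45 and 9.26 against 6.38, 6.90 and 7.36 (1.40 ± 0.37, limma adjusted p = 0.00577). The globin copies resemble each other, so their values are not separate. Endothelial genes had 1 of 12 higher, Vwf (1.13 ± 0.20, with groups apart), and 1 lower, Eng (-0.16), and neutrophil genes none of 7 called. Both endothelial shares were below those of all genes (15.6% higher and 15.8% lower). The part of these tissue transcripts in the other differences was not tested.

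Mast cell genes were higher in 3 of 4 tested, against 15.6% of all genes, and most of the list was below the level tested. Besides Tpsab1, the second tryptase Tpsb2 was higher (4.88, 5.43 and 6.19 against 3.99, 4.02 and 4.29, 1.40 ± 0.28, limma adjusted p = 0.000612), as was the histamine-forming enzyme Hdc (0.41), while the receptor Kit was not called (0.34). The other 7 of the 11 markers were below the level tested. Fcer1a, the IgE receptor chain that defines mast cells, lay at -1.50 to -1.38 and Ms4a2 at -0.63 to -0.51. Cpa3 lay at 1.84 to 2.88, Mcpt4 at 2.10 to 3.48 and Cma1 at 2.18 to 3.88. In WT VE822 the tryptase Tpsab1, at 7.90 or more, stood far above these untested markers, while Hdc was at 7.21 to 7.93. The tryptases are near copies of each other and their values are uncertain in that respect. B cell genes were called in 2 of 7, Ighm (1.09) and Igkc (0.88), and in none without the libraries high in muscle transcripts. The defining B cell marker Ms4a1 (-1.38 to -1.32) was at the bottom of the scale in all 12 libraries. Keratinocyte genes were nearly absent, with 2 of 10 tested.

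**Figure D4:**
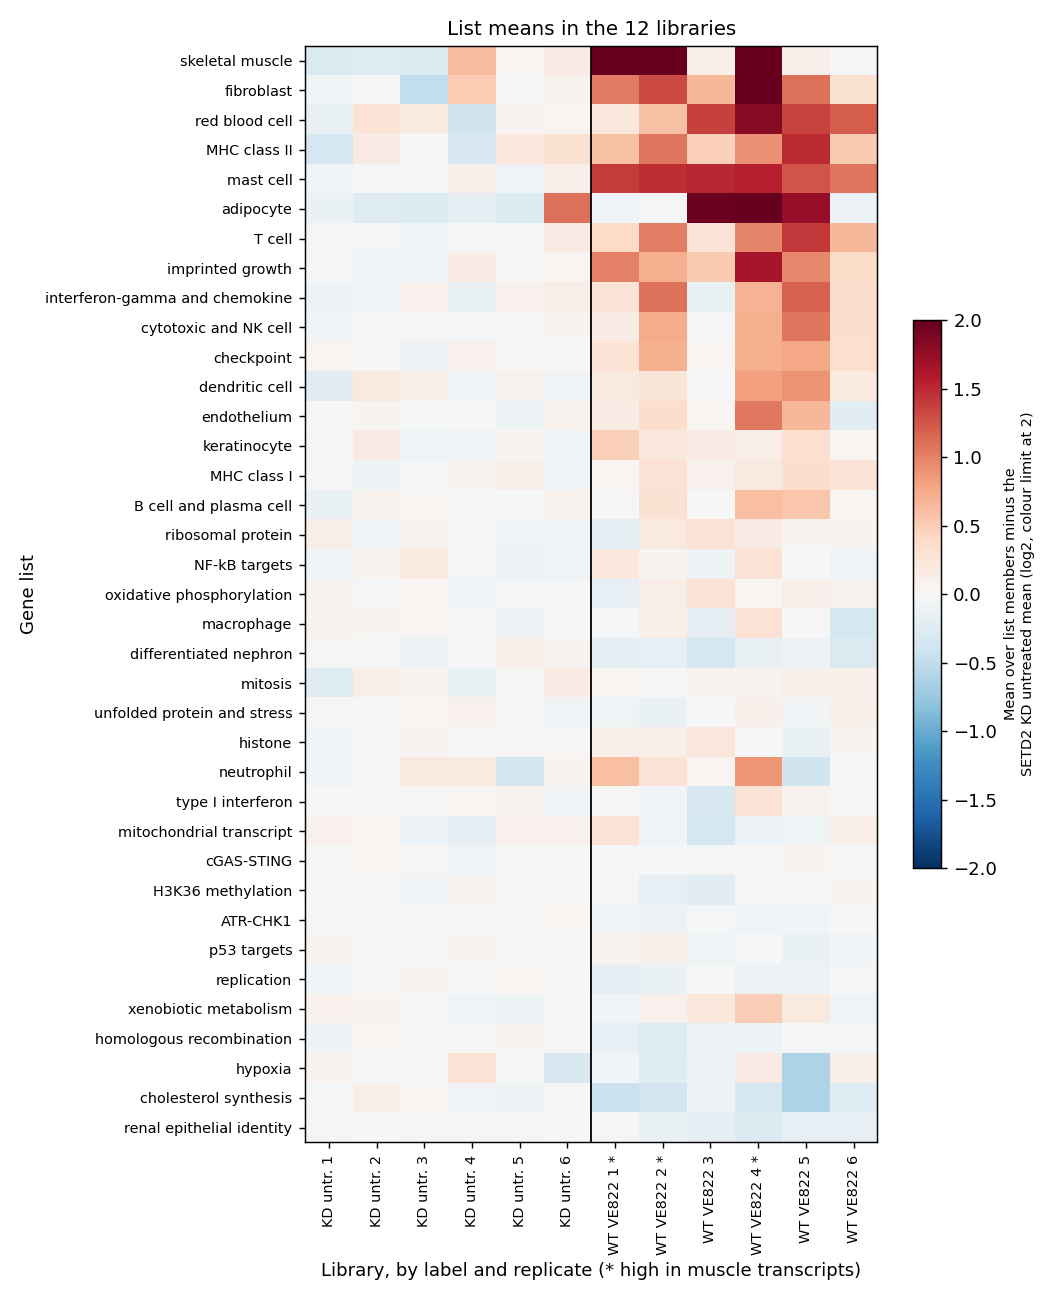
Rows are the 37 gene lists and columns the 12 libraries (6 SETD2 KD untreated on the left, 6 WT VE822 on the right, asterisks for those high in muscle transcripts); colour is the mean over a list's members minus the SETD2 KD untreated mean (log2, colour limit at 2). Muscle is dark in replicates 1, 2 and 4 and adipocyte in 3, 4 and 5, whereas the T cell and MHC class II lists are above 0 in all 6 WT VE822 libraries.

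Imprinted growth genes were higher in 7 of 12 and lower in none (median 0.62), and in 4 without the libraries high in muscle transcripts. The shares of all genes called higher were 15.6%, and 9.91% without those libraries. After Igf2 came the noncoding RNA Meg3 (1.15), the growth inhibitor Cdkn1c (0.76), Sgce (0.70), the receptor adaptor Grb10 (0.66), Impact (0.41) and Igf2r, the receptor that clears Igf2 (0.37). The noncoding RNA H19, the neighbour of Igf2, was at 1.22 and not called, and Dlk1 at 0.18. Igf2 therefore stood 4.20 apart in a list whose other members were within 1.22 of 0.

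Differences were uneven over the chromosomes. On chromosome 10, 365 of 715 tested genes were lower (51.0%, against 15.8% of all genes) and 52 higher. Among the 475 chromosome 10 genes whose mean rlog reached 8 the median difference was -0.26, and 90.1% were negative. The chromosome 10 median of each WT VE822 library lay between -0.29 and -0.25 relative to the SETD2 KD untreated mean, and that of each SETD2 KD untreated library between -0.04 and 0.03. All 6 libraries of one label thus lay together and apart from the other. Chromosome 6 was shifted upward, with 236 of 789 genes higher and 37 lower (median 0.10), and chromosomes 8 and 12 downward (median -0.10 each, 215 of 823 and 120 of 501 lower). Of the genes named above, Ptprr and Ipmk are on chromosome 10 and with chromosome medians removed differed by -1.24 and -0.75, both still called, while Sesn1 (-0.20) and Ddit3 (-0.07) lost their call. Ndufa4l2, also on chromosome 10, ran against its chromosome.

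**Figure D5:**
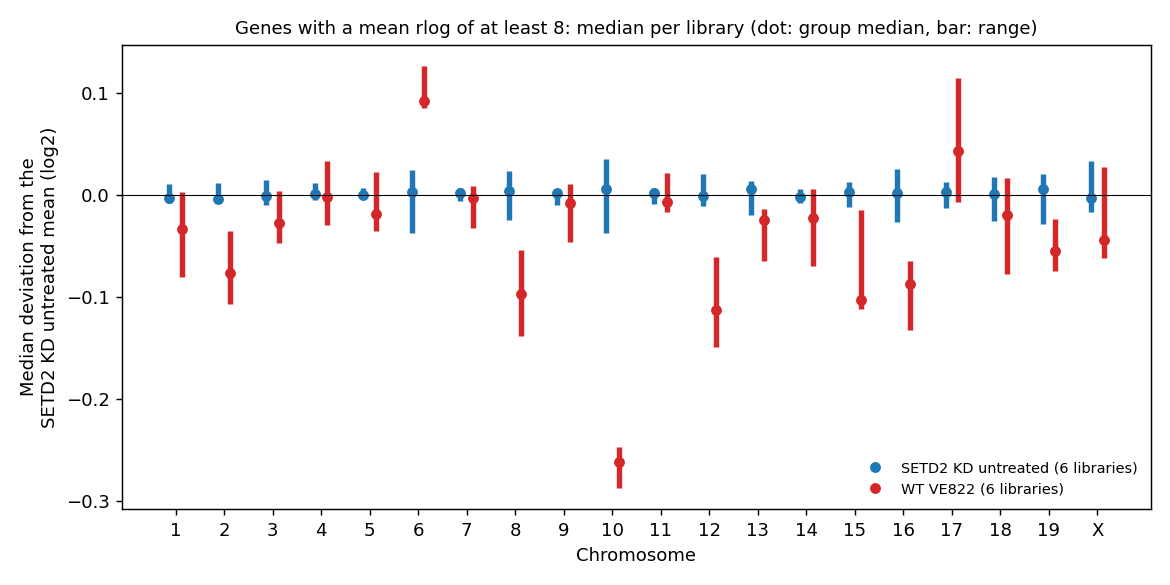
For each chromosome (x axis) the median deviation from the SETD2 KD untreated mean (y axis, log2) over genes whose mean rlog reached 8 is shown as the group median (dot) and range (bar) of the 6 libraries of each label. On chromosome 10 the WT VE822 libraries lie between -0.29 and -0.25, apart from those of SETD2 KD untreated, and on chromosome 6 they lie between 0.09 and 0.13.

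The opposite pairing of labels, SETD2 KD VE822 (5 libraries) against WT untreated (7), shares no library with this one, so the difference between both contrasts can be tested. That difference equals the WT minus SETD2 KD label difference, added over untreated and VE822 libraries. It was called in 5 of 15916 genes (0.0314%), 3 higher and 2 lower, and 1195 genes had an unadjusted limma p under 0.05. Fn1, encoding fibronectin, differed by 0.51 here and by -0.86 in the opposite pairing (difference 1.37 ± 0.21, adjusted p = 0.00569). Fn1 lost its call here without the libraries high in muscle transcripts (0.26, adjusted p = 0.262). Cd22, a B cell receptor of sialic acid, was at -0.30 here, not called, and at 0.93 there (difference -1.23 ± 0.18, adjusted p = 0.00569). Fmod was at 1.59 here and -0.29 there (1.88 ± 0.30, adjusted p = 0.00706), the small secreted protein gene Mucl1 at 1.43 and -1.44 (2.87 ± 0.48, adjusted p = 0.0106), and Mfsd12, a transporter of lysosomes and melanosomes, at -0.07 and 0.34 (-0.41 ± 0.06, adjusted p = 0.00706).

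The genes with the largest changes did not differ between the pairings beyond their error. Igf2 was at 4.20 here and 4.28 there (difference -0.08 ± 0.79, adjusted p = 0.991), Aoc1 at 3.78 and 3.56, Cyp2f2 at -2.67 and -2.72 (0.05 ± 0.37), Krt18 at -0.92 and -0.84 (-0.08 ± 0.08) and Stard4 at -0.96 and -0.80 (-0.16 ± 0.14). The wide error for Igf2 leaves room for a difference of more than 1. Setd2 was at -0.78 and -1.11 (0.32 ± 0.14, adjusted p = 0.611). SETD2 KD VE822 replicate 4 is included in these values and stood apart from its group. It had Igf2 at 6.37 (the others 10.82 or more) and Aoc1 at 5.41 (the others 9.21 or more). Its Pou3f3 was at 9.95 (the others 8.21 or less). This library therefore lowers the Igf2 and Aoc1 differences of the opposite pairing. Without it, 11 genes were higher and 18 lower in the difference, the 5 genes above among them.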

How the data were processed

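RNA was sequenced from 24 Renca tumour libraries, and the 12 labelled WT VE822 or SETD2 KD untreated are described. The authors deposited regularised log2 values (rlog), 1 row per Ensembl gene, per the file headers. Per the submitters' processing notes, FastQC, TopHat, HTSeq and DESeq2 were used with GRCm38, without versions, and neither strandedness nor extraction is stated. Depth is unknown, so no counting intervals are given. The table has 46078 rows, 16906 of them 0 in every library, and 15916 reached a mean rlog of 3 and were tested. Names come from GENCODE vM21 (99.59% of tested rows matched, 935 rows of the table did not). limma 3.58.1 in R 4.3.3 fitted 4 group means over all 24 libraries, with a mean-variance trend and Benjamini-Hochberg adjustment (threshold 0.05). Another contrast tested the difference from the opposite pairing of labels. The fit was tested on simulated data. Named were Setd2, Atr, Chek1, Cgas, Tmem173 and Igf2, the 12 largest called differences each way without overlap, the 3 smallest p-values, up to 4 members per list with the smallest p (more where a list was accounted for) and 6 genes of the opposite-pairing difference. The members and the 37 lists were chosen with earlier results of these data known. Lists (604 entries, 540 tested) got no set test. Libraries with a muscle mean over 1.5 above the median of all 24 were set aside in 1 alternative. Replicates were numbered in accession order, so none is paired. The human cell line table was not used here. Some genes that the naming rule or the lists hold are not reported here by name.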

Additional observations from a re-analysis of the deposited data

Results flagged for a closer look

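Of 146 groups of 6 libraries examined, 5 held a library far from the other 5 by Dixon's criterion, and chance flags about 1 in 20 groups. Igf2 in SETD2 KD untreated replicate 3 was at 6.63, with the others at 5.83 to 6.06. Tpsab1 in SETD2 KD untreated replicate 6 was at 5.30, with the others at 4.84 to 4.96. Ppef1 in the same library was at 7.64, with the others at 6.67 to 7.02. The adipocyte list mean in the same library was 7.0, with the others at 5.63 to 5.77. Pou3f3 in WT VE822 replicate 5 was at 7.96, with the others at 7.01 to 7.29. Each of the 4 genes had been chosen for groups that do not overlap, so the library in question lay outside the range of the other label.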

How the results depend on the processing

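Of 139 called genes among the 146 named, 73 kept their call in all 21 alternatives. So did all 24 of the largest differences, which had been chosen for their call and for groups that do not overlap. Leaving out 1 library at a time gave 2095 to 2638 genes higher and 2221 to 2617 lower. Leaving out 1 library removed the call of 8 to 19 of the 139, removing chromosome medians 15, dropping the libraries high in muscle transcripts 30 and the covariates 54. Called in the report but lost in 7 or more alternatives were Chek1, Cgas, Klrk1, Igkc, Ighm, Hdc, Eng, Mylpf, Cubn, H2-Q4, Socs1, Ifit2, Tipin, Adm, Egln3 and Vcam1. Muscle, fibroblast and adipocyte list means as covariates gave 1382 higher and 1462 lower. Without the libraries high in muscle transcripts 1578 were higher, and a change of at least 2-fold left 273 higher and 37 lower. Against the opposite pairing of labels, library weights gave 18 higher and 31 lower, and leaving out 1 library gave 3 to 11 higher and 2 to 18 lower (without WT VE822 replicate 1, 5 and 4, and without WT VE822 replicate 3, 6 and 5). The sign turned for Igkc (-0.082 with covariates), Mylpf (-0.088 with covariates and -0.10 without the libraries high in muscle transcripts), Tbk1 (0.074 with chromosome medians removed) and Mfsd12 (0.19 with chromosome medians removed, adjusted p = 0.00232). Fewer libraries or residual degrees of freedom enter the leave-out and covariate fits, and beyond that the cause was not tested. Depth is unknown, and rlog pulls low genes towards their mean, which limits the size of their differences. No paired analysis was possible because the labels carry no replicate numbers shared between groups.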
